A study of Homo sapiens with 3 samples.

Results

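The data compare the transcripts of HCT116 cells in which PRMT1 was knocked down (PRMT1-KD1, written KD1) with those of HCT116 cells that received a negative control (PRMT1-NC, written NC). HCT116 is an established human colorectal carcinoma cell line. RNA from each culture was hybridised to 1 Agilent SurePrint array with probes of 60 bases. Each gene was read by its brightest probe and kept if NC, KD1 or both arrays gave a signal well above background, which left 19231 of 41749 gene names. All 3 arrays of the series share the cell line and the Lipofectamine 3000 transfection, and the remaining array, from another knockdown of PRMT1 (PRMT1-KD2, written KD2), is given beside KD1 where it helps. KD1 and KD2 were set against the same NC array, so their changes are not independent of each other, and a high or low reading of 1 spot on NC enters both.

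PRMT1 is the enzyme that deposits most of the asymmetric dimethylarginine in mammalian cells. It methylates histone H4 at arginine 3, a mark associated with active promoters, and it methylates the arginine-glycine-rich (RGG) stretches of many RNA-binding proteins. TNS4, a tensin of focal adhesions that stabilises receptor tyrosine kinases, and EGFR were the study's genes of interest downstream of PRMT1, and SMARCA4 is the ATPase of the SWI/SNF chromatin remodelling complex.

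The labels describe small interfering RNAs, whereas the study's text also speaks of short hairpin RNAs for knockdown of PRMT1 in these cells, so the kind of agent behind these arrays is not certain. The labels give 2 oligonucleotides against PRMT1 and do not say which of them was used for KD1, so both are shown, with bases 2 to 8 from the 5′ end in capitals.
siRNA-1: cUGAAGUCcaggucgauggugaaguc
siRNA-2: uUGUAGUCuuuguacugcc
The exact reverse complement of neither siRNA lies in any probe of the array. PRMT1 itself was read by 1 spot of 1 probe (hg19 chr19:50188248-50189362, plus strand). The 60 bases span more than 1 kb of the genome, so the probe crosses a splice junction and reads spliced coding sequence.
PRMT1 probe: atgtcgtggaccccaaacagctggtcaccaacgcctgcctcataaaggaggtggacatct
A further probe is assigned to a transcript described in the files as a pseudogene of PRMT1 (ENST00000604252, hg19 chr5:176692609-176692668, minus strand). Its capitals mark the longest stretch, 12 bases, that it shares with the reverse complement of siRNA-1.
Reverse complement of siRNA-1: GACTTCACCATCgacctggacttcag
PRMT1 pseudogene probe: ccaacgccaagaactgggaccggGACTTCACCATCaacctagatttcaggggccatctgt
Over the 26 bases of the oligonucleotide the pseudogene probe is equal at 23 and differs by G13A, G18A and C21T, counted from the 5′ end of the reverse complement.

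All levels below are log2 intensities minus the 75th percentile of their array, so that 0 is the signal of a fairly bright probe and 1 unit is a doubling. Changes are KD1 minus NC on this log2 scale. A gene was counted as lower or higher past a fold of 1.5, or 0.585 log2 units. No group has a replicate array and no test was possible, so each change below compares these arrays only and has no replicate check. As a yardstick, probes spotted at least 5 times had a median SD between spots of 0.044 on NC and 0.049 on KD1, whereas genes with 2 probes well above background on both arrays had changes that differed between the probes by a median of 0.34. Over genes well above background on both arrays, the change in KD1 had a robust SD of 0.48. Of the non-control probes, 40.7% were well above background on NC and 41.6% on KD1. The arrays carried 9 of 12 colorectal epithelium markers above background on NC and 10 of 12 on KD1, among them EPCAM (6.44 and 6.74) and KRT19 (11.36 and 11.06), whereas VIL1 and CEACAM5 were not well above background on either array. The defining leukocyte markers PTPRC and CD3E were not well above background on either array. CD14 and ITGAM were, as were COL1A1 among 6 fibroblast markers and CDH5 (-2.26 on NC and -0.78 on KD1) and VWF among 5 endothelial markers. HBB was well above background on KD1 only.

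PRMT1 had the lowest change of the protein-coding genes measured on both arrays. It stood at 6.01 on NC against 2.75 on KD1 and 1.45 on KD2, a change of -3.26 in KD1, or 10.4% of the control signal. The pseudogene probe was lower too, with 5.85 on NC against 2.15 on KD1 and 0.78 on KD2. Given its likeness to PRMT1 sequence, this probe may also read PRMT1 transcripts. Signal of PRMT1 and of the pseudogene cannot be told apart on it. TNS4 (hg19 chr17:38632098-38632157, minus strand) stood at 4.44 on NC, 3.40 on KD1 and 3.45 on KD2, so KD1 held 48.6% of the control signal. With scaling to spike-in probes the change of TNS4 was -0.43, within the fold. In the order of all changes from the lowest, TNS4 was at 569 of 19231. SMARCA4 was within the fold, at 6.29 on NC, 6.62 on KD1 and 6.39 on KD2. EGFR, the epidermal growth factor receptor, was higher in KD1 and lower in KD2 by its brightest probe (1.72 on NC, 2.39 on KD1 and 0.96 on KD2). Its other 2 probes, assigned to other transcripts of the gene, had changes of 0.04 and 0.37 in KD1.

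Of the other arginine methyltransferase genes, 7 of 8 were measured, 4 were higher in KD1, 1 was lower and 2 were within the fold. PRMT6, which methylates histone H3 at arginine 2, was the highest. Its probe (hg19 chr1:107601422-107601481, plus strand) is spotted 10 times on each array and read -0.46 ± 0.19 on NC, 1.27 ± 0.058 on KD1 and -0.01 ± 0.12 on KD2 (mean and SD of 10 spots of 1 hybridisation). The spots of KD1 thus lay 1.73 above those of NC, while KD2 lay 0.46 above NC. PRMT3, a cytosolic enzyme that methylates a ribosomal protein, read -0.25 on NC, 0.83 on KD1 and -0.19 on KD2. PRMT9 (a change of 0.63) and PRMT2 (0.60) were just past the fold, and the other probes of PRMT2 had changes of 0.09 and 0.59. PRMT5, the main enzyme of symmetric dimethylation, was within the fold at 6.41 on NC and 6.72 on KD1, as was CARM1 at 6.37 and 6.12. PRMT7 was the lower one, at 5.47 on NC, 4.67 on KD1 and 4.52 on KD2, with other probes at -1.12 and 0.15. With adjustment for the GC content and brightness of probes, described below, 4 of the 7 genes were higher and 0 lower. PRMT7 was then within the fold. Among the partners and readers of arginine methylation, 5 of 22 were higher and 2 lower. BTG2, an antiproliferative protein that binds PRMT1, was the highest (4.62 on NC, 5.64 on KD1, 5.19 on KD2), and TOB1 of the same family was the lowest (4.44, 3.53 and 4.32).

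Across the array, 2468 genes (12.8%) were lower in KD1 and 2544 genes (13.2%) were higher. Among the 12880 genes with a protein-coding name the shares were 9.42% lower and 15.3% higher. The lists of protein-coding genes below are read against these. Large changes were few. Of the 17214 genes well above background on both arrays, 6 were lower and 11 higher past 4-fold. Of the 2468 lower genes 1213 had a protein-coding name, and of the 2544 higher genes 1971 had one. Of 4759 array names with no match in RefSeq, 20.7% were lower and 9.22% higher, of 990 long noncoding RNAs 18.0% were lower and 9.09% higher, and of 198 small nucleolar RNA genes 20.7% were lower and 1.52% higher. The unmatched names and the long noncoding RNAs were also dim, with median levels of -1.25 and -0.81 against 1.91 for protein-coding genes. The small nucleolar RNA genes were brighter, at a median of 0.81, with median changes of -0.35 in KD1 and 0.05 in KD2.

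**Figure D1:**
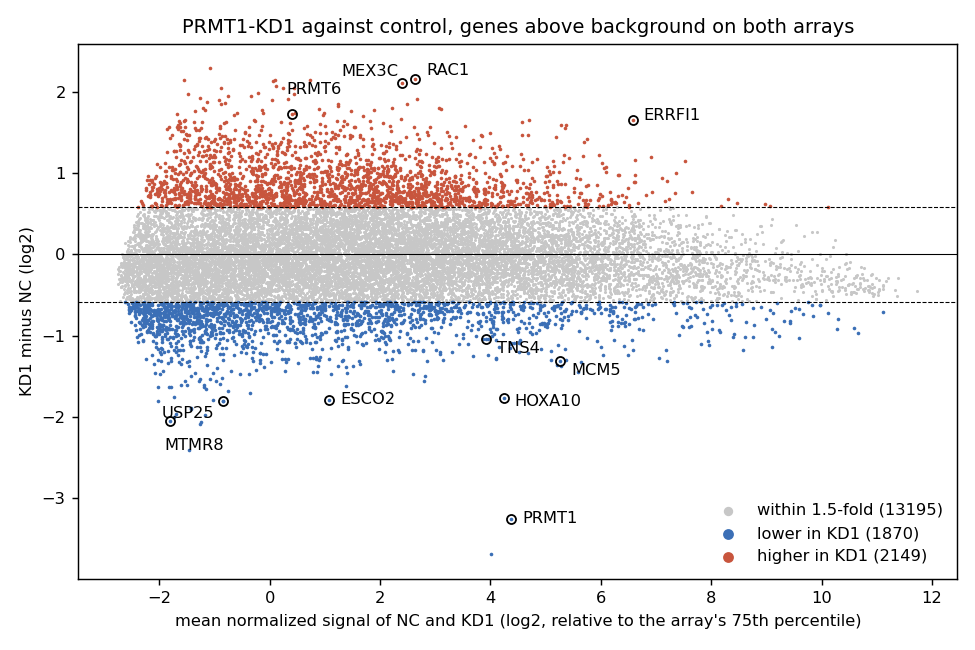
Each point is 1 of the 17214 gene names well above background on both arrays, with the mean normalized log2 signal of NC and KD1 on the x axis and KD1 minus NC (log2) on the y axis. Dashed lines mark 1.5-fold, and PRMT1, at -3.26, lies well below the body of the plot, as does the pseudogene probe below it.

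The change varied with the base composition of the probe, and the part of this in the results below was not tested. Genes whose probe held 35 to 40% G and C bases had a median change of 0.19 in KD1, those at 50 to 55% had -0.24 and those at 60% or more had -0.44. In KD2 the same classes had medians of 0.03, -0.16 and -0.21. The pattern was also present within genes. For 1532 genes with probes that differ by at least 10 percentage points of GC, the probe richer in GC had a change lower by a median of 0.19 log2 units in KD1 and was the lower one in 66.3% of them. In KD2 that median difference was -0.04, with the richer probe lower in 54.9%. The lists are therefore also given after subtracting the median change of genes in the same of 8 GC classes and 5 brightness classes, called the GC adjustment. Over all 19231 genes this adjustment left 1996 lower and 2325 higher, against 2468 and 2544 without it. Adjusted counts of the lists are to be read against the former, which cover all gene names and not protein-coding names alone.

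**Figure D2:**
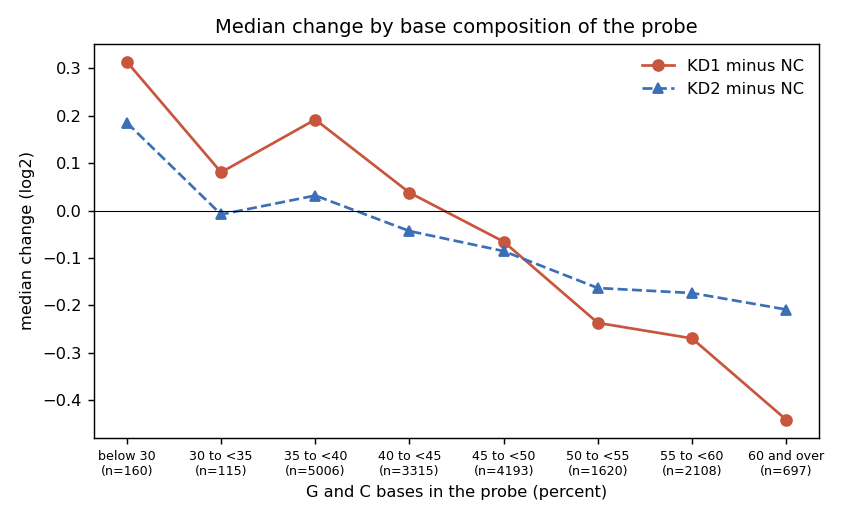
Median change against NC (log2, y axis) of genes grouped by the percent of G and C bases in their probe (x axis, number of genes in brackets) for KD1 (circles) and KD2 (triangles). The KD1 medians are 0.31 below 30% GC, 0.08 at 30 to 35%, 0.19 at 35 to 40% and lower in each further class, down to -0.44 at 60% and over.

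The 15 protein-coding genes with the lowest changes on both arrays lay at -3.26 to -1.50. USP25, a deubiquitinase, read 0.05 on NC, -1.76 on KD1 and -2.72 on KD2, while OTUD6A, another deubiquitinase, read -0.75, -2.32 and -1.78. TTI2, a subunit of the TTT complex that matures the ATM, ATR and mTOR kinases, read -0.13, -1.93 and -2.33. The other members of that complex had changes of -0.72 (TELO2) and -0.29 (TTI1). ESCO2, the acetyltransferase that establishes sister chromatid cohesion in S phase, read 1.97 on NC, 0.18 on KD1 and 1.12 on KD2, but its other probe had a change of -0.54, within the fold. HOXA10, a homeobox transcription factor, was the brightest of these on NC after PRMT1 (5.13 on NC, 3.36 on KD1 and 4.57 on KD2). Its probe holds 65% GC. After GC adjustment its change was -1.21, and its other probe had a change of -0.49, within the fold.

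The remaining genes of this set were dim on NC. IL1RN, the secreted antagonist of the interleukin-1 receptor, read -0.48 on NC, -2.36 on KD1 and -2.41 on KD2. Its other probe, not well above background on both arrays, had a change of -0.61. KCTD12, an auxiliary subunit of GABA-B receptors, read -0.48, -2.39 and -0.89, with another probe at -0.57. MTMR8, of the myotubularin family of phosphoinositide phosphatases, had a change of -2.06, and CD209, a C-type lectin of dendritic cells, one of -1.97. The other probes of KCTD12 and CD209, the latter at -0.30 and -0.24, were not well above background on both arrays. SH2D3C, an adaptor protein, NHSL1, LIPN, CCDC74A and GOLGA8O made up the rest, at -1.50 to -1.61. GOLGA8O and CCDC74A have near-identical copies in the genome, so their probes may read several transcripts. Apart from PRMT1, HOXA10 and ESCO2, these genes lay between -0.81 and 0.05 on NC, well under the median of 1.42 for genes on both arrays.

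The 15 protein-coding genes with the highest changes lay at 1.95 to 2.16. RAC1, a GTPase that drives lamellipodia, read 1.55 on NC, 3.71 on KD1 and 3.16 on KD2. MEX3C, an RNA-binding ubiquitin ligase, read 1.34, 3.44 and 2.71, and UBE3A, also a ubiquitin ligase, read -0.59, 1.46 and 0.74. The other probe of UBE3A, above background on both arrays, had a change of 0.05. There were 3 genes of zinc finger transcription factors, ZNF616 (-0.35, 1.80 and 1.62), ZNF17 (-1.01, 1.12 and 0.79) and ZSCAN29 (-1.20, 0.79 and 0.32). SETD7, a histone H3 lysine methyltransferase, read -0.92, 1.15 and 0.09, and EAF1, which binds the elongation factor ELL, read -1.73, 0.22 and -0.58. CRY1, a repressor of the circadian clock, read -1.32, 0.64 and -0.03. SLC4A7, a sodium bicarbonate transporter, read -0.97, 1.18 and 0.58, and CPD, a carboxypeptidase of the secretory pathway, read -2.62, -0.47 and -2.15. IER3IP1, COL4A6, PSD3 and KRCC1 completed the set.

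The 15 highest genes were read by probes with 23.3 to 40% GC, and the 15 lowest by probes with 35 to 65%. After GC adjustment the changes of the highest genes were 1.49 to 2.09 and those of the lowest -2.96 to -1.21. Against the same NC array, KD2 had changes of 0.47 to 1.96 (median 1.33) for the highest and of -4.56 to -0.36 (median -1.44) for the lowest.

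**Figure D3:**
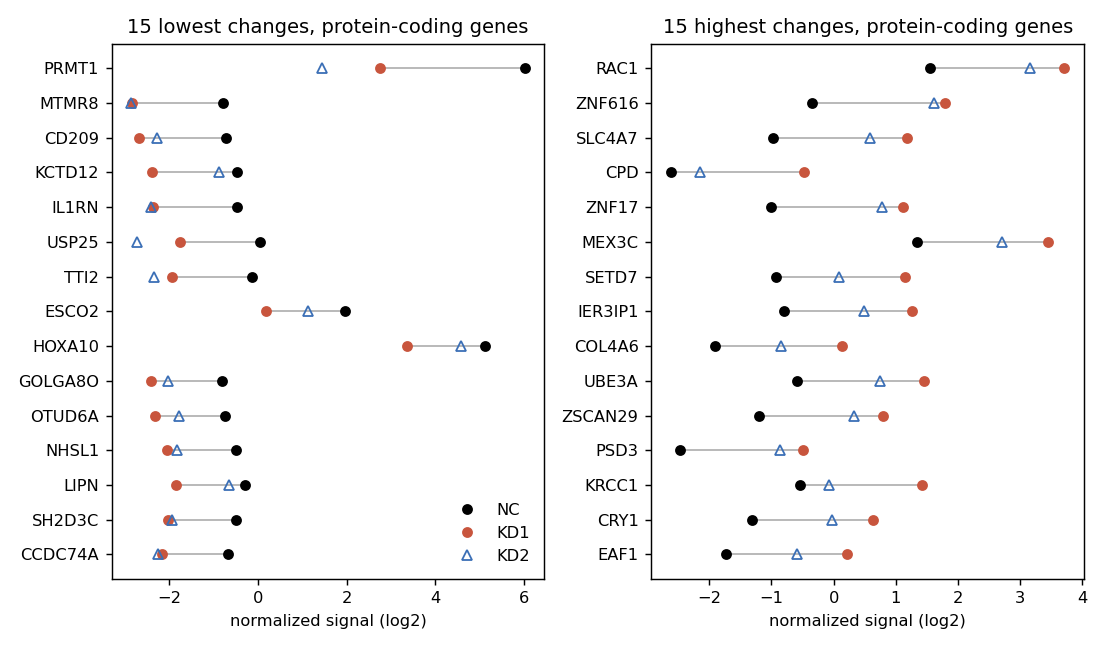
Normalized log2 signal (x axis) of the 15 protein-coding genes with the lowest (left) and the 15 with the highest (right) changes on NC (black circles), KD1 (red circles) and KD2 (open triangles), 1 array each. In the left panel PRMT1, HOXA10 and ESCO2 are above 1 on NC and the other 12 are below it.

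A further 598 lower and 395 higher genes were well above background on 1 array only, so their changes are bounds against the weakest signal called above background. Of the lower bounds 368 were also not well above background on KD2, and all 598 rest on a single spot of NC. The largest lower bounds included those of IKZF1, a lymphoid transcription factor (at least 8.30-fold), TLL1, a tolloid-like metalloprotease (8.21-fold), ARHGEF38, a guanine nucleotide exchange factor (7.86-fold), and the olfactory receptor OR5L1 (7.14-fold). The other probe of IKZF1 went the other way, with a change of 2.69, and that of TLL1 had -0.22, neither being well above background on both arrays. The other 2 probes of ARHGEF38 were not well above background on both arrays and had changes of -0.22 and -0.17. The largest bounds among higher genes were CAPS, a calcium-binding protein (at least 6.65-fold), MSANTD3-TMEFF1 (6.37-fold), ATAD2B, a bromodomain ATPase (6.04-fold), MNS1 (5.39-fold) and APCS, serum amyloid P (5.17-fold).

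Genes with several probes allow a check within the arrays. Among 3926 genes with at least 2 probes well above background on both arrays, every probe was lower past 1.5-fold for 83 genes (2.11%) and higher for 126 genes (3.21%). By comparison, 691 of these genes had at least 1 probe lower and 934 at least 1 probe higher, and 58 had probes past the fold both ways. Past 2-fold, 4 genes were lower by every probe and 16 higher. MCM5, a subunit of the helicase that unwinds replication origins, was lower by both probes, with 5.92 on NC against 4.61 on KD1 and 4.80 on KD2 by one, and 3.76 against 2.70 and 2.73 by the other. H2AC13, a replication-dependent histone gene (HIST1H2AI on the array), had changes of -1.0 and -1.24, against -0.30 and -0.22 in KD2. The other two were LOC153684 (-1.64 and -1.54) and LOC100130238 (-1.03 and -1.02), named here after their values were seen.

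FAS, a death receptor, was higher by 3 probes assigned to the same transcript, with 1.17, 1.23 and 1.71 in KD1 against 0.50, 0.54 and 0.30 in KD2. The probes with 1.17 and 1.23 overlap in position (hg19 chr10:90774545-90774604 and chr10:90774517-90774576), so they are not fully separate readings. ANXA7, a calcium-dependent membrane-binding annexin, was higher by 1.08 and 1.82. NRIP1, a corepressor of nuclear receptors, was higher by 1.1 and 1.33, and PRPF38B, a splicing factor, by 1.19 and 1.49. THAP12, ZZZ3, a reader subunit of the ATAC acetyltransferase complex, and ZNF776 were higher by 1.21 to 1.61 by both probes. HDAC9, a class IIa histone deacetylase, was higher by 1.54 and 1.07 by 2 probes, and its remaining probe was not well above background on both arrays.

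**Figure D4:**
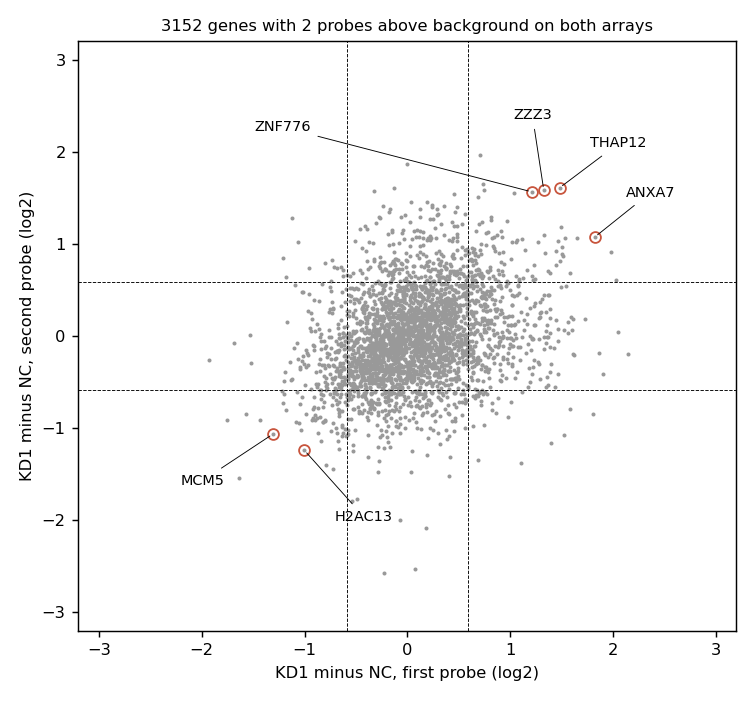
KD1 minus NC (log2) by the first (x axis) and second probe (y axis) of each of 3152 genes with 2 probes above background on both arrays, with dashed lines at 1.5-fold. MCM5 and H2AC13 lie in the lower left corner and THAP12, ZZZ3, ZNF776 and ANXA7 in the upper right.

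The functions of the genes past the fold were then described through 62 gene lists. With scaling to spike-in probes every change is 0.61 higher, which turns the median of each list below 0 positive, so the KD1 medians called relative below are those minus the median of all protein-coding genes (0.02), which a shift of an array does not move. Medians in KD2 and after GC adjustment are printed as they are, beside -0.08 and 0.04 for all protein-coding genes. Of 61 mitotic spindle and kinetochore genes, 17 were lower, 3 were higher and 41 were within the fold, with a median 0.30 below that of protein-coding genes. After GC adjustment 18 were lower and 0 higher. TTK, the spindle checkpoint kinase, read 1.96 on NC, 0.65 on KD1 and 1.06 on KD2. CENPC, a constitutive centromere protein, read 2.71, 1.66 and 2.0. MKI67, the proliferation antigen Ki-67, read 4.48, 3.53 and 3.77, and its other probes had changes of -0.47 and -1.68. The 3 higher genes were CENPK (0.83), CENPH (0.83) and ZWINT (0.60). In bulk RNA, fewer cells in mitosis and less of these transcripts per cell cannot be told apart.

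Of 47 replication licensing and fork genes, 3 were lower, 1 was higher and 43 were within the fold. The lower ones were MCM5, CLSPN, the checkpoint adaptor claspin (1.72, 0.43 and 1.48 on NC, KD1 and KD2), and CDT1, the licensing factor that loads the MCM helicase (7.10, 6.04 and 6.48). The higher one was TIPIN, at 0.60. The share lower, 6.38%, was under that of all protein-coding genes without adjustment. With the GC adjustment, 6 of the 47 were lower and 0 higher. The unadjusted median of the 47 was 0.19 below that of protein-coding genes. Of 51 DNA repair genes, 9 were lower and 3 higher (14 and 3 after GC adjustment), with a relative median of -0.26. XRCC3, a factor of homologous recombination, read 8.91 on NC, 7.89 on KD1 and 8.21 on KD2 (with another probe at -0.57), while BRCA2, also of homologous recombination, read -0.66, -1.63 and -1.50. NBN of the MRN complex was higher (1.14), whereas MRE11 of the same complex was lower (-0.82). After GC adjustment the medians of mitotic, replication and repair genes were -0.35, -0.23 and -0.24. Their KD2 medians were -0.36, -0.24 and -0.23. Genes of the G1/S transition were mixed, with 6 of 31 lower, among them CCNE2, cyclin E2 (-0.92), and E2F2 (-0.89), and 3 higher, among them RB1 (0.96) and E2F3 (0.77, with another probe at -0.34). Of 17 genes of deoxynucleotide synthesis 3 were lower and 4 higher.

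Clustered histone genes, which encode the replication-dependent histones, stood lowest of the lists with over 30 measured members. Of 60 measured, 17 were lower, 0 were higher and 53 had a change below 0. The changes ran from -1.20 to 0.46 and the median was 0.51 below that of protein-coding genes. In KD2 the same 60 genes ranged from -0.57 to 1.13, with a median of 0.05. H2BC12 read 5.13 on NC, 3.92 on KD1 and 5.31 on KD2 (with another probe at -0.49), H3C1 read 4.92, 3.81 and 5.03, and H1-1 read -1.31, -2.36 and -0.66. All 5 histone classes had medians below 0 in KD1, at -0.57 for H2A, -0.51 for H2B, -0.45 for H3, -0.37 for H4 and -0.27 for H1. Their probes are rich in GC, with a median of 53.3%. After GC adjustment the median was -0.23, with 10 genes lower and 1 higher. Of the 60 probes, 18 share at least 20 consecutive bases with the probe of another of these genes, and the median change was -0.47 for these and -0.50 for the other 42. Near-identical histone genes may thus share signal.

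Of 34 genes induced by the MAPK pathway, 14 were higher, 1 was lower and 19 were within the fold, with a relative median of 0.48 and a median of 0.47 after GC adjustment. FOS, an immediate early transcription factor, read 3.36 on NC, 4.68 on KD1 and 4.87 on KD2. ATF3 read 6.95, 8.10 and 8.27 by its brightest probe, although its other probes had changes of -0.51 to 0.31. DUSP5, a phosphatase of ERK, read 4.75, 5.89 and 5.51. PHLDA1 read 2.67, 3.85 and 2.95, and its other probe, not well above background on both arrays, had a change of -0.03. The lower one was SPRY1, a feedback inhibitor, at -0.74, and its other probe, not well above background on both arrays, had a change of 0.92. Among 43 EGFR adaptors and RAS, RAF and PI3K components, 11 were higher and 3 lower, and after GC adjustment 7 were higher and 3 lower. ERRFI1, an inhibitor that binds the EGFR kinase domain, had 5.75 on NC against 7.41 on KD1 and 6.73 on KD2. MAP2K1 (1.47, 2.84 and 2.30), STAT3 (-1.13, 0.19 and 0.21) and NRAS (1.03, 2.07 and 2.04) followed. The other probes of STAT3 (0.45) and NRAS (0.44) were within the fold.

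Of the 9 measured EGF receptor family members and ligands, 4 were higher and 2 lower (3 and 2 after GC adjustment). The ligands EREG (3.25, 4.75 and 4.23 on NC, KD1 and KD2), HBEGF (-0.35, 0.97 and 0.47) and AREG (6.90, 7.58 and 7.40) were higher, with EGFR. The receptor ERBB3 (0.69, -0.41 and -0.63) and the ligand BTC (-0.71, -1.52 and -1.56) were lower. The other probes of ERBB3 had changes of -0.20 and 0.12, the latter not well above background on both arrays. After GC adjustment the change of EGFR was 0.40, within the fold. Tensins and focal adhesion genes were spread both ways, with 5 of 38 lower and 7 higher (4 and 6 after GC adjustment). TNS4 was the lowest, followed by TNS2 (-0.86, -1.87 and -1.96) and by the actin crosslinkers ACTN1 (6.0, 5.29 and 5.34) and FLNA (6.58, 5.93 and 6.26, with other probes at -0.79 and -0.41). TNS3, a paralog of TNS4, was higher as a bound (1.11). PTK2, the focal adhesion kinase, read 1.60, 2.51 and 2.2.

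Apoptosis and immune lists had members past the fold both ways. Of 36 BCL2 family and caspase genes, 9 were higher and 2 lower, and after GC adjustment 6 were higher and 3 lower. Their relative median was 0.04, with 17 changes below 0 and 19 above. BBC3, the BH3-only protein PUMA, read 4.53 on NC, 5.50 on KD1 and 5.82 on KD2. BCL2L11, the BH3-only protein BIM, was lower by its brightest probe (2.65 on NC and 1.64 on KD1), and its other probes had changes of -0.53 and -0.48, within the fold.

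NF-kappaB targets and cytokines had 13 of 34 genes higher and 1 lower, with a relative median of 0.28, and after GC adjustment 9 were higher and 1 lower. The chemokine CXCL1 read 2.65 on NC, 4.09 on KD1 and 4.60 on KD2, while CXCL5 read -1.99, -0.79 and -1.33. IL1RN was the lower one. In contrast, of 40 interferon-stimulated genes 10 were lower and 4 higher, with a relative median of -0.34 and a median of -0.26 after GC adjustment. The lowest measured on both arrays were OAS3, an activator of RNase L (1.55, 0.28 and 0.81, with a second probe at -1.81 that was not above background on both arrays), and IFITM1, a membrane protein that restricts virus entry (-0.66, -1.84 and -2.0, with a second such probe at -1.22). IFIT2 (0.90, 1.74 and 1.18), HERC5, TAP1 and IFIT1 were the 4 higher ones, and the other probe of IFIT2 had a change of 0.13, within the fold.

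Among regulators of chromatin, the histone lysine and DNA methylation enzymes had 15 of 47 genes higher and 3 lower, with a median of 0.18 that was 0.09 after GC adjustment, when 13 were higher and 4 lower. SETD7, the demethylases KDM7A (-1.82 on NC, 0.04 on KD1, -0.68 on KD2) and KDM4C (0.53, 2.12 and 1.52), and the H3 lysine 9 methyltransferase SUV39H2 (1.26, 2.40 and 1.78) were highest. Their other probes above background on both arrays had changes of -0.18 for KDM7A and of -0.31 and 0.14 for KDM4C. TET2 (-0.98), SUV39H1 (-0.81) and TET1 (-0.74) were lower, and the other probes above background on both arrays had changes of 0.44 and 0.88 for TET2 and of -0.43 for SUV39H1. SWI/SNF subunits had 7 of 25 higher and 0 lower (4 and 1 after GC adjustment), with BCL7B (2.2, 3.15 and 3.03) the highest and SMARCD3 (5.41, 4.85 and 4.66) the lowest.

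The largest list was that of 381 genes named ZNF, which encode zinc finger proteins, many of them repressors. Of these 112 (29.4%) were higher and 17 lower, with a relative median of 0.25 and a median of 0.21 after GC adjustment. The share differed with base composition. Of 325 ZNF genes with probes of up to 45% GC, 33.5% were higher, against 18.8% of 9240 other protein-coding genes with such probes, whereas of 56 with more GC 5.36% were higher, against 3.68% of 3262. The 167 on chromosome 19, where these genes lie in clusters, had medians of 0.33 (KD1) and 0.30 (KD2), and the 214 elsewhere had 0.21 and 0.08. TRIM28, a corepressor that some zinc finger proteins recruit, was lower, at 6.57 on NC, 5.44 on KD1 and 5.65 on KD2. A link between it and the ZNF genes was not tested.

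Genes of RNA-binding proteins with RGG stretches, the class that includes many PRMT1 substrates, had 10 of 40 higher and 1 lower, with a relative median of 0.24. The median after GC adjustment was 0.18, with 11 higher and 2 lower, and that in KD2 was 0.03. G3BP2, a stress granule protein, read 3.09 on NC, 4.57 on KD1 and 2.97 on KD2, while HNRNPM read 4.16, 5.21 and 4.92. The lower one, FMR1, was at -0.59, and its other probe had a change of 0.73. Of 34 SR splicing factors and spliceosome genes 7 were higher and 0 lower (6 and 0 after GC adjustment). Of 46 helicases of the DDX and DHX families 8 were higher and 0 lower (10 and 3 after GC adjustment), among the higher ones DDX21 (3.11, 4.32 and 3.74) and DDX5 (5.54, 6.63 and 6.22).

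The cytosolic ribosomal protein genes, the brightest list, were mostly within the fold. Of 82 genes 2 were lower, 1 was higher and 79 were within it, with a relative median of -0.30, which became 0.02 with quantile normalization, and a median of -0.15 after GC adjustment. RPL23A (11.15, 10.18 and 10.78) and RPL21 (10.69, 9.90 and 10.48) were the 2 lower ones, each also by its other probes, and RPS27L, a paralog of RPS27, was the higher one (6.75, 7.66 and 7.16). The 77 mitochondrial ribosomal proteins had a relative median of 0.01, with 4 lower and 5 higher. Initiation and elongation factors had 5 of 45 higher, led by EIF4A2 (4.73, 5.95 and 5.42), and 2 lower, EIF6 (8.41, 7.45 and 7.30) and EIF4EBP1, the inhibitor of EIF4E (6.88, 6.21 and 6.14).

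Developmental pathways had members past the fold both ways. Of 46 Wnt pathway genes and targets 9 were lower and 6 higher (10 and 8 after GC adjustment). AXIN2, a feedback inhibitor and direct Wnt target, was lowest by its brightest probe (0.02, -1.42 and 0.14), but its other probe, not above background on both arrays, had a change of 0.86. APC, the scaffold of the destruction complex, read 1.54, 0.37 and 0.98, with a second probe at -1.05 that was not above background on both arrays. SOX9 (0.42, 1.87 and 1.34), a crypt progenitor factor, was highest. Of 20 genes of intestinal identity 4 were higher and 1 lower, and the highest was KLF5, a factor of crypt proliferation (0.84, 2.55 and 2.15). Of 26 Hippo pathway genes and YAP targets 4 were higher and 1 lower, with the secreted YAP target CCN1 (4.49, 6.08 and 5.85) and the kinase LATS2 (-0.16, 1.39 and 1.13) highest. Keratins had 2 of 13 lower, KRT8 (9.22, 8.35 and 8.82) and KRT7 (7.96, 7.16 and 7.5), and 0 higher. After GC adjustment 0 keratins were lower, and their median of -0.23 became -0.03. The other probes of KRT8 had changes of -0.35 and -0.28. CDH1, E-cadherin, was the highest of 32 junction genes (1.23, 2.2 and 1.99), while among mesenchymal genes the repressor SNAI2 was highest (0.12, 1.87 and 1.11) and S100A4 was lower (7.92, 6.93 and 7.13).

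Metabolic and housekeeping lists varied in the share past the fold. Sterol and fatty acid synthesis had 5 of 36 higher, with HMGCS1 the highest (0.50, 1.97 and 1.92), and 3 lower (4 and 6 after GC adjustment). Respiratory chain subunits had 2 of 72 lower and 3 higher, proteasome subunits 1 of 36 lower and 2 higher, and tRNA synthetases 0 of 16 past the fold. Glycolysis and hypoxia genes had 4 of 40 lower, with GAPDH among them (10.29, 9.67 and 9.67), and 7 higher (2 and 5 after GC adjustment). Of 43 genes of ATF4 and the unfolded protein response 13 were higher and 3 lower (13 and 2 after GC adjustment), led by DNAJB9, an endoplasmic reticulum cochaperone (1.14, 2.56 and 2.10), while the chaperone HSPA5 was lower (4.15, 3.42 and 3.30). Solute carriers had 46 of 246 higher and 20 lower (35 and 17 after GC adjustment). LINC long noncoding RNAs had 47 of 214 lower and 23 higher, and after GC adjustment 24 each way. Their counts without adjustment are to be read against the 990 long noncoding RNAs and not against protein-coding names. Of those 990, 18.0% were lower and 9.09% higher.

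**Figure D5:**
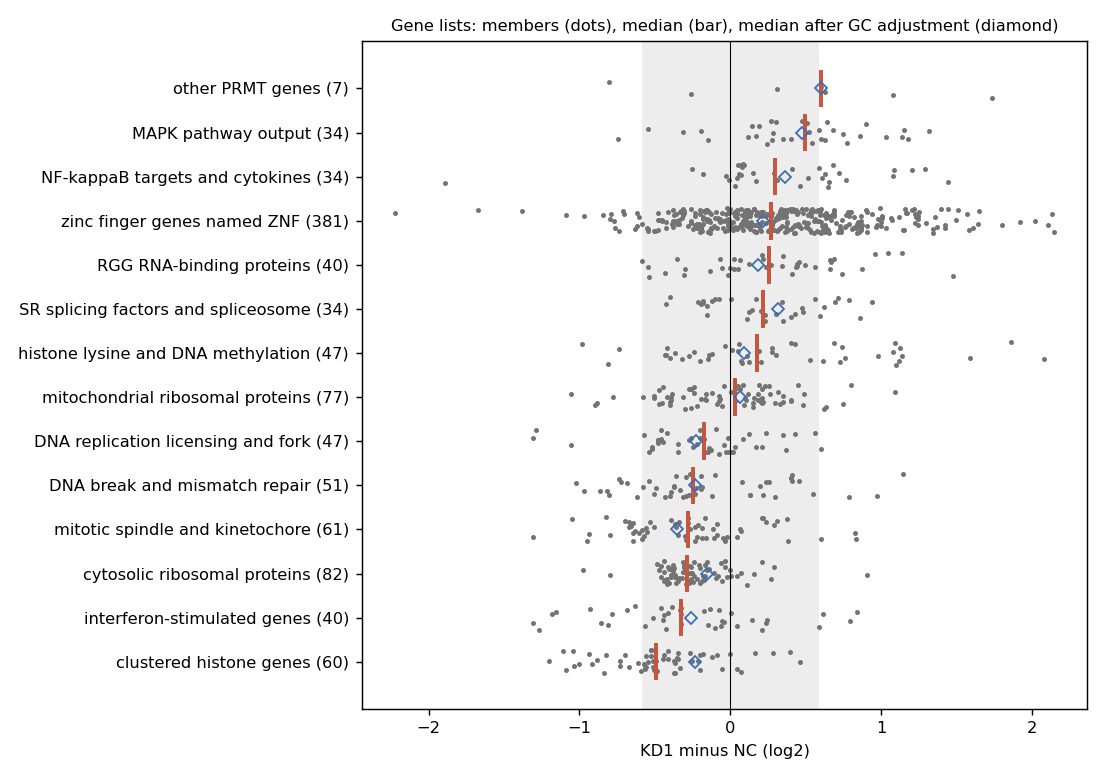
KD1 minus NC (log2, x axis) of each measured member (dots, number in brackets) of 14 gene lists, with the list median (bar), the median after GC adjustment (diamond) and the range within 1.5-fold shaded. Clustered histone genes sit lowest, with 0 members above the shaded range. With scaling to spike-in probes all dots and bars lie 0.61 further right, and with quantile normalization the ribosomal protein median reaches that of protein-coding genes.

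The letters complementary to bases 2 to 8 of each siRNA were also looked for in the probes, on the transcript strand only. GACTTCA, for siRNA-1, is in 0.606% of all probes and in those of 107 genes on both arrays, whose median change was -0.26 in KD1 and -0.29 in KD2, against -0.04 and -0.07 for genes without it. GACTACA, for siRNA-2, is in 0.37% of all probes and in those of 59 genes, with medians of -0.18 in KD1 and -0.53 in KD2. Both sets of probes had a median of 45% GC, against 43.3% and 45% for the genes without each heptamer, and the medians after GC adjustment in KD1 were -0.14 and -0.10. A probe covers only 60 bases of a transcript, so a match is a description of the probe and not a target site.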

How the data were processed

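RNA of HCT116 cells was measured on 3 Agilent 1-colour arrays, 1 for each group of the labels. The authors deposited the scanner output, in which Agilent Feature Extraction 10.7.1.1 had turned each spot into a processed intensity that was background-corrected and not scaled between arrays. Probe positions refer to hg19.

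Control spots and spots marked as non-uniform or population outliers were left out (141 and 80 marked on KD1, 6 and 61 on NC). Spots of a probe were averaged as log2 intensity, and the 75th percentile of each array was subtracted. Each gene was represented by the probe brightest on average across NC, KD1 and KD2. On an array where this probe was not well above background it was set to the weakest signal called above background there, unless its own signal was stronger. Of the 41749 names, 21043 matched a symbol and 1565 a unique synonym of RefSeq (GRCh38.p14, names only). With 1 array per group no test was made and no p-value is given, and the number of arrays limits the precision.

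The lists and the comparison were chosen with earlier results of these data known. Named genes were the study's genes, the 15 lowest and 15 highest protein-coding changes on both arrays, the 5 largest bounds each way, up to 8 genes each way with every probe past 2-fold, and up to 4 members at each end of a list. The alternatives were normexp background correction (limma 3.58.1 in R 4.3.3, offset 50), other scalings, trend removal, other filters, other choices of probe, the deposited series matrix intensities and a fold of 2. The counting code was run on arrays simulated from NC with planted changes of 2-fold. This checks the code and not the calls on the real arrays. Some genes and lists that these rules name are not reported here. Computations used pandas 2.3.3, numpy 2.4.6 and statsmodels 0.14.6 under Python 3.11.15, and plots matplotlib 3.10.9.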

Additional observations from a re-analysis of the deposited data

Results flagged for a closer look

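EGFR was past 1.5-fold in opposite directions in the 2 knockdowns by its brightest probe, with a change of 0.675 in KD1 and of -0.753 in KD2. Its other probes had changes of 0.04 and 0.37 in KD1, and the GC-adjusted change of the brightest was within the fold. The study lists EGFR as lowered at least 1.5-fold in both PRMT1 knockdowns and reports less EGFR by RT-PCR and western blot. The direction in KD1 here is thus opposite to the study's. With 1 array each, the difference between the knockdowns was not tested.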

How the results depend on the processing

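Against 2468 lower and 2544 higher genes, normexp background correction gave 890 lower, scaling to spike-in probes 378 lower and 9309 higher, no filter and no floor 5094 lower and 4542 higher over 41749 names, a fold of 2 gave 641 for the genes lower in KD1 and 860 for the genes higher in KD1, and protein-coding names alone 1213 lower. Higher genes made up 50.8% of the calls, against 66.2% with normexp, 64.7% with median scaling, 40.1% with the percentile over detected probes and 96.1% with spike-in scaling. The change of TNS4 was -0.432 with spike-in scaling. The relative median changed sign under at least 1 alternative for 26 of 62 lists, among them the EGF receptor family and ligands (down to -0.0433). Of the 17 lists at least 0.2 from the protein-coding median, 1 did so, cytosolic ribosomal proteins, at 0.0241 with quantile normalization. Among the named genes past the fold, the FMR1 change in KD1 turned positive with spike-in scaling (0.0245) and with the mean over probes (0.0714). ARHGEF38 (0.3003), SPRY1 (0.0895) and TET2 (0.173) did so with the mean over probes. For ARHGEF38 every probe was lower in KD1, and the positive value came from the floor, which raised its mean on KD1. Named genes within the fold also changed sign, among them KRT19 (up to 0.3154), CARM1 (up to 0.3514) and SMARCD3 (up to 0.0499). A further 121 of 2017 values, for 62 of 156 named genes, kept their sign and came within the fold. The causes were not tested. No paired analysis was possible because each group has 1 array.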
